A study of Rattus norvegicus with 10 samples.

Results

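Of the 25523 sites bound by SOX9 or SOX6 in RCS cells, a rat chondrosarcoma line, 865 overlapped a peak of H3K9me3, and 532 of these 865 also carried H3K27ac. They were selected on measured values, the positions of the deposited peaks, as the SOX9 and SOX6 intervals that share at least 1 bp with an H3K9me3 interval, joined into sites where they overlap each other. This took 490 SOX9 and 582 SOX6 intervals, 1072 in all, or 3.31% of the SOX9 list, 3.01% of the SOX6 list and 3.39% of all SOX sites. These counts come from the rule itself and are a description with no test.

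The cells were profiled by chromatin immunoprecipitation with sequencing, without a stated treatment, with antibodies to both SOX factors, to H3K27ac and to the methylation marks H3K9me3, H3K4me1 and H3K4me3 (1 library each), and 4 inputs were made without antibody. RCS is a single tumour line, so all 6 lists share its genome. With 1 library per antibody no difference below has a replicate error and none was tested. Intervals in brackets are 95% intervals that cover counting error over sites, and they are too narrow for what another library would give because neighbouring sites are not independent. The inputs held 36873004 to 131858579 reads, and the depth of the immunoprecipitated libraries is unknown.

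SOX9 is the main driver of the cartilage cell fate, and SOX6 is a relative without a known activation domain that acts beside SOX9 on cartilage genes. H3K27ac and H3K4me1 are found together at active enhancers, and H3K4me3 lies at promoters. H3K9me3 is the mark of heterochromatin, where it is bound by HP1 proteins and is usually spread over long stretches of silent chromatin and repeats. A SOX site that carries H3K9me3 with H3K27ac therefore combines marks that are usually found apart. The lists come from populations of cells, and whether both marks lay on the same DNA molecule cannot be told from them.

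H3K27ac was present at 61.5% of the 865 sites (58.2% to 64.7%), against 72.6% (72.1% to 73.2%) of the 24658 SOX sites without H3K9me3 and 72.3% of all SOX sites. The difference was -11.1 percentage points (-14.5 to -7.90). Weighted to the quintiles of site width, SOX sites without H3K9me3 had H3K27ac at 75.5%. With every list limited to peaks above its median score the order turned, at 78.6% against 77.7%, a difference of 0.916 points (-4.65 to 5.62) with an interval that includes 0. A separate comparison is that among H3K9me3 intervals, where those with a SOX interval overlapped H3K27ac more often than those without. Of the 857 H3K9me3 intervals with a SOX interval, 62.1% overlapped H3K27ac, against 8.12% of the 51574 without one and 9.01% of all H3K9me3 intervals. H3K4me1 met 64.8% and H3K4me3 16.6% of these 857, against 9.44% and 1.72% of all H3K9me3 intervals. The 857 are 1.63% of the H3K9me3 list. No active mark at all, neither H3K27ac nor H3K4me1 nor H3K4me3, was called at 262 sites, which is 30.3% (27.3% to 33.4%) of these sites and compares with 15.5% (15.0% to 15.9%) of SOX sites without H3K9me3.

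In percentage points, the gap in acetylation was widest among the lowest-scoring SOX intervals. High shares leave less room for a gap in points, and SOX6 intervals in H3K9me3 stayed lower in the highest quintile too. In the lowest quintile of the authors' peak score, 35.9% (27.8% to 44.9%) of the SOX9 intervals in H3K9me3 and 52.9% (51.1% to 54.8%) of the other SOX9 intervals met H3K27ac. Among SOX9 intervals of the highest quintile, 96.6% (90.6% to 98.8%) of those in H3K9me3 and 97.7% (97.1% to 98.2%) of the rest did. SOX6 intervals in H3K9me3 met H3K27ac at 35% in the lowest and 89.0% (81.4% to 93.7%) in the highest quintile, and other SOX6 intervals at 52.0% and 94.5% (93.7% to 95.2%). Weighting the other intervals to the score quintiles of those in H3K9me3 put their shares at 78.6% for SOX9 and 73.5% for SOX6, beside 71.0% and 64.4% for those in H3K9me3. The scale of the score is unknown, so it was read within each list alone.

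Acetylated sites had the marks of enhancers far more often than of promoters. H3K4me1 was present at 485 of the 532, or 91.2% (88.4% to 93.3%), and H3K4me3 at 152, or 28.6% (24.9% to 32.6%). Over all SOX sites the shares were 70.3% and 37.9%. At acetylated SOX sites without H3K9me3 the shares were 81.6% for H3K4me1 and 51.0% for H3K4me3. The acetylated sites in H3K9me3 thus stood 9.52 points (6.75 to 11.7) higher for H3K4me1 and 22.5 points lower for H3K4me3 (difference -22.5, -26.2 to -18.4). The combination of H3K27ac with H3K4me1 and without H3K4me3 was found at 65.6% (61.5% to 69.5%) of acetylated sites in H3K9me3 and 46.5% (45.8% to 47.3%) of the others.

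These sites were also wider, with a median of 732.5 bp against 553 bp, and wide SOX sites meet marks more easily. When the other acetylated sites were weighted to the same quintiles of site width, their shares were 85.4% for H3K4me1 and 54.4% for H3K4me3. By width quintile H3K4me3 was at 11.8% against 46.5% in the second and 41.8% against 62.8% in the widest. In the narrowest it was at 29.7% (17.5% to 45.8%) against 43.8%, which lies within that interval. A low share of H3K4me3 was also a property of acetylated H3K9me3 intervals without SOX, of which 13.6% (12.6% to 14.6%) met H3K4me3 and 62.2% (60.7% to 63.6%) met H3K4me1. The 152 acetylated sites with H3K4me3 overlapped high-scoring H3K9me3, with a median at the 79.9th percentile of the H3K9me3 list (70.5 to 87.1). For all acetylated sites it was the 70.9th (66.6 to 73.6), and these intervals overlap.

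Sites without H3K27ac carried the other active marks less often. H3K4me1 was present at 69 of 333, or 20.7% (16.7% to 25.4%), and H3K4me3 at 5, or 1.5% (0.643% to 3.47%). At the 6748 SOX sites with neither H3K9me3 nor H3K27ac, the shares were 41.2% (40.0% to 42.3%) and 5.45% (4.94% to 6.02%). The share with H3K4me1 was lower in each quintile of site width, from 4.84% against 20.9% in the narrowest to 60.0% against 73.7% in the widest, the latter over 15 sites. H3K4me1 therefore divided the acetylated from the other sites more sharply inside H3K9me3, by 70.4 points (65 to 75), than outside it, by 40.5 points (39.2 to 41.8). With every list limited to peaks above its median score, these differences were 46.2 points (32.3 to 59.2) and 16.8 points (14.8 to 18.9), and that of H3K4me3 inside H3K9me3 went from 27.1 to 13.8 points.

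**Figure D1:**
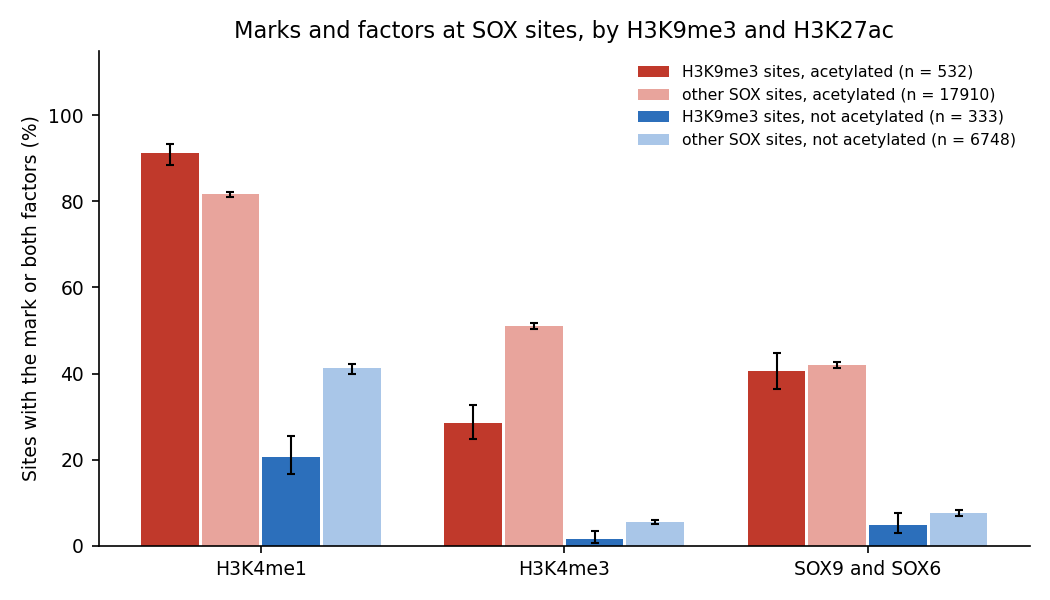
Share of SOX sites, in percent, with H3K4me1, with H3K4me3 and with both factors, for sites with H3K9me3 (dark) and without (pale), with H3K27ac (red) and without (blue). Bars are shares over sites and error bars are Wilson 95% intervals. H3K4me1 reached 91.2% at acetylated and 20.7% at other sites in H3K9me3, and H3K4me3 was at 28.6% of acetylated sites there against 51.0% elsewhere.

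Both factors were called at 232 of the 865 sites, which is 26.8% (24.0% to 29.9%), against 32.4% of all SOX sites. SOX9 alone was at 265 sites, or 30.6% (27.7% to 33.8%), against 25.1% of SOX sites without H3K9me3. SOX6 alone was at 368, or 42.5% (39.3% to 45.9%), against 42.4% there. Among acetylated sites 40.6% (36.5% to 44.8%) had both factors, which differed from the 42.0% at acetylated sites without H3K9me3 by -1.35 points (-5.51 to 2.93), an interval that includes 0. Their width was not matched there. Weighted to the same site widths, the other acetylated sites had both factors at 51.8%. Without H3K27ac, 16 of 333 sites had both factors, or 4.80% (2.98% to 7.66%). At SOX sites with neither H3K9me3 nor H3K27ac the share was 7.59% (6.98% to 8.24%). The difference was -2.78 points (-4.72 to 0.138), an interval that includes 0. Acetylated sites with both factors nearly always had H3K4me1, at 211 of 216.

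Score followed acetylation within H3K9me3 as it did outside. SOX9 intervals at acetylated sites had a median score of 113 (99.4 to 127), and SOX9 intervals at the other sites had 57.4 (55.4 to 60.8), just above the lowest score of the list, 50.01. For SOX6 the medians were 137 (117 to 157) and 60.9 (58.7 to 64.4). At SOX sites without H3K9me3 the corresponding medians were 110 and 58.4 for SOX9 and 129 and 66.9 for SOX6. The best SOX interval of the 262 sites without any active mark lay at a median of the 16.6th percentile of its list, and 8 of them passed the 80th percentile.

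The median site had 97.6% of its length under H3K9me3, 411 of 865 sites lay wholly inside, and 659 had their centre inside. Acetylated sites lay less deeply in H3K9me3, with a median of 80.9% of their length under it, 35.7% wholly inside and 67.7% with the centre inside. For sites without H3K27ac these values were 100%, 66.4% and 89.8%. Acetylated sites are also the wider ones, and this comparison was not matched on width. At acetylated sites the median overlap was 471.5 bp (433 to 497), and SOX, H3K9me3 and H3K27ac met on the same base pairs at 526 of 532 sites. The H3K9me3 interval itself often lay inside acetylated chromatin. Among the 532 H3K9me3 intervals with both a SOX interval and H3K27ac, 53.2% (48.9% to 57.4%) lay wholly under H3K27ac, against 32.4% (31.0% to 33.9%) of the 4190 acetylated H3K9me3 intervals without SOX. Close to the limit of the choice, 42 SOX intervals shared 1 to 50 bp with H3K9me3 and 81.0% of them met H3K27ac, and 40 intervals lay outside but within 50 bp and 72.5% of them did.

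H3K9me3 intervals were somewhat wider at acetylated sites. The median width of the widest interval at a site was 933 bp (878 to 1018) with H3K27ac and 810 bp (764 to 871) without, and the quartiles, 694.75 and 1496.25 bp against 622 and 1277 bp, overlapped broadly. Intervals of at least 2 kb were met at 15.4% and 8.71% of the sites, a difference of 6.70 points (2.20 to 10.9). In 4 of the 5 quintiles of site width the acetylated sites had the wider median, and in the fourth quintile the order turned, at 925 bp against 1171.5 bp. All H3K9me3 intervals had a median of 701 bp, but a wide interval is met more easily by a SOX interval. When each interval was weighted by its width plus the median SOX width, the median over all H3K9me3 intervals was 796 bp. It was 1021 bp for acetylated intervals without SOX and 776 bp for those without SOX or acetylation. With the same weights, H3K9me3 intervals with both SOX and H3K27ac had a median of 1315 bp. A SOX interval had already met these, so that weight counts their width a further time. Without weights their median was 912 bp. Both this and the 933 bp at acetylated sites, also not weighted, lay below the 1021 bp of acetylated intervals without SOX.

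**Figure D2:**
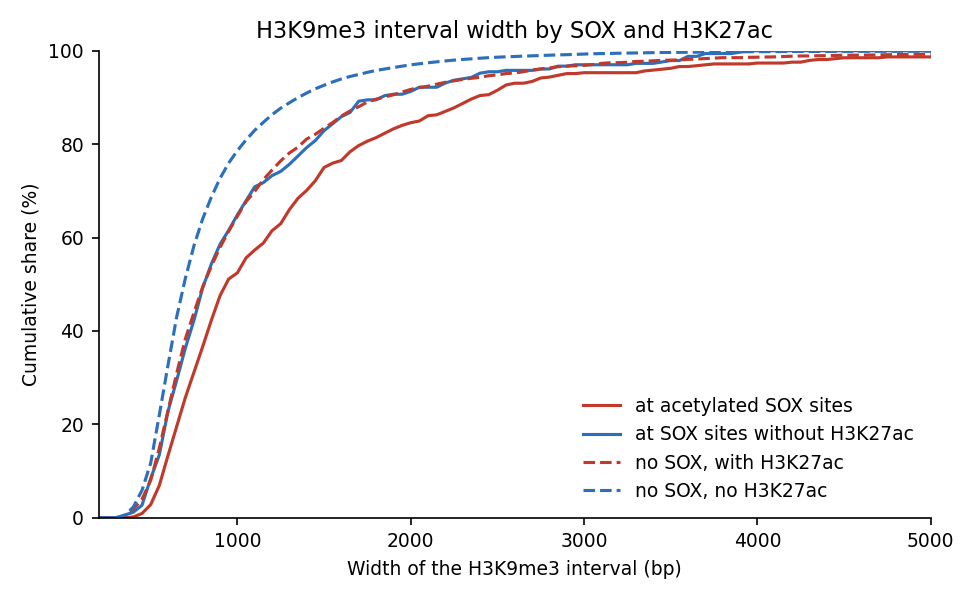
Cumulative share, in percent, by H3K9me3 width in bp, with H3K27ac (red) and without (blue). Solid curves count SOX sites by the widest H3K9me3 interval at each, and dashed curves count H3K9me3 intervals without SOX. Curves run to 5000 bp and are not weighted for the ease with which a wide interval is met. The curve of acetylated SOX sites lies to the right, with a median of 933 bp, and that of intervals with neither SOX nor H3K27ac lies to the left, with a median of 692 bp.

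H3K9me3 score showed a small difference between the sets, with medians at the 70.9th (66.6 to 73.6) and 65.6th (59.2 to 70.8) percentile of the list. The shared high value of 3100 was found at 30 acetylated and 2 other sites, or 5.64% (3.98% to 7.94%) and 0.601% (0.165% to 2.16%), and at 0.442% of all H3K9me3 intervals.

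H3K9me3 intervals within 5 kb of each other were joined into runs, since this mark often covers a region as a row of peaks. Acetylated sites lay in runs with a median of 3 intervals and 5881.5 bp (5006 to 6971), and the other sites in runs with a median of 2 intervals and 3744 bp (3082 to 4602). Runs of 5 or more intervals held 37.0% (33.0% to 41.2%) of acetylated and 25.8% (21.4% to 30.8%) of other sites, a difference of 11.2 points (4.84 to 17.3). Within quintiles of site width the shares were 33.3% and 32.1% in the second, and the order turned in the fifth, at 38.5% against 40%, the latter over 15 sites. Above the median score of each list it was 3.86 points (-9.99 to 14.8), an interval that includes 0, and the difference of the medians was 0 intervals there and with runs joined over 2.5 kb. Of all H3K9me3 intervals 26.9% were in such runs. Weighted by width, the share was 41.6% for acetylated intervals without SOX and 28.4% for those with neither, so the order by acetylation was the same with and without SOX.

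The relation between run and acetylation was not a steady one. H3K27ac was at 54.6% (47.8% to 61.2%) of the 207 sites on a lone H3K9me3 interval and at 82.9% (72.4% to 89.9%) of the 70 sites in runs of 10 to 19. It was at 59.2% (45.2% to 71.8%) of the 49 sites in runs of 20 or more, and at 48.6% (33.0% to 64.4%) of the 35 that remain without the run on chromosome 7 described next. All H3K9me3 intervals followed a like order at a much lower level, from 6.42% acetylated in lone intervals to 16.3% in runs of 10 to 19 and 5.79% in runs of 20 or more.

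**Figure D3:**
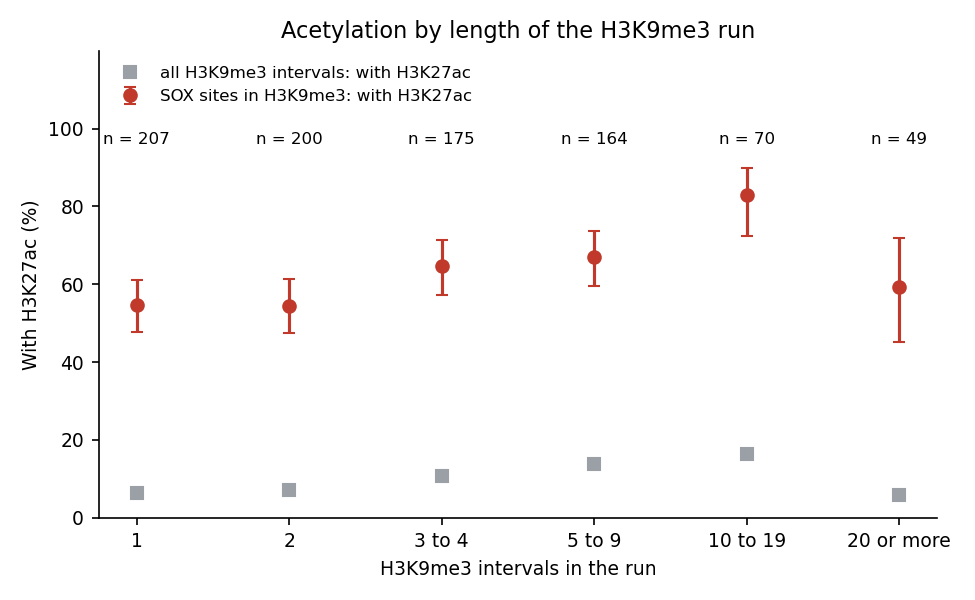
Share with H3K27ac, in percent, by the number of H3K9me3 intervals in the run, for the SOX sites in H3K9me3 (red circles, Wilson 95% intervals, n of sites above) and for all H3K9me3 intervals (grey squares). The sites peak at 82.9% in runs of 10 to 19 intervals and stand at 59.2% in runs of 20 or more.

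The longest runs ranged widely in acetylation. Of 85 runs with 20 or more intervals, 15 held a SOX site that overlapped H3K9me3. H3K27ac covered from 0% to 74.1% of the length of these 15. In 5 of them it covered over 20%, in 5 it covered 0.835% to 10.5%, and in 5 no H3K27ac peak was called. Of the 70 without a SOX site in H3K9me3, 58 had no H3K27ac peak. SOX intervals that lay only in the gaps between the H3K9me3 intervals of these 70 were not counted. On chromosome 7, where input reads per Mb were 1.91 times the median chromosome, lay the run with most SOX sites in H3K9me3. It reached from 26838712 to 26978778 (rn5), with 63 H3K9me3 intervals and 14 such sites in 140 kb. H3K9me3 covered 64.8% of it, H3K27ac 74.1%, H3K4me1 82.3% and H3K4me3 2.92%, and 12 of the 14 sites were acetylated. A run on chromosome 10 from 101252751 to 101347530 held 50 intervals and 6 sites, all acetylated, with H3K9me3 over 74.8% and H3K27ac over 41.8%. Another on chromosome 10, from 95333773 to 95427355, held 5 sites, of which 2 were acetylated, with H3K27ac over 23.0% of it.

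Other long runs had little or no acetylation. The run on chromosome 12 from 7827006 to 7917922 had 48 H3K9me3 intervals over 59.8% of its length, H3K27ac over 1.28%, H3K4me1 over 3.44% and 5 SOX sites without acetylation. The longest run with a SOX site in H3K9me3 lay on chromosome 3 from 176640532 to 176893200. It held 119 intervals in 253 kb and no peak of any active mark. Its SOX sites were 2 SOX9 intervals with scores of 51.1 and 52.5, close to the lowest of the list. A run of 75 intervals on chromosome 3, from 182802526 to 182959063, had a SOX9 interval with a score of 58.9, a SOX6 interval with a score of 98.1 and no active mark.

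**Figure D4:**
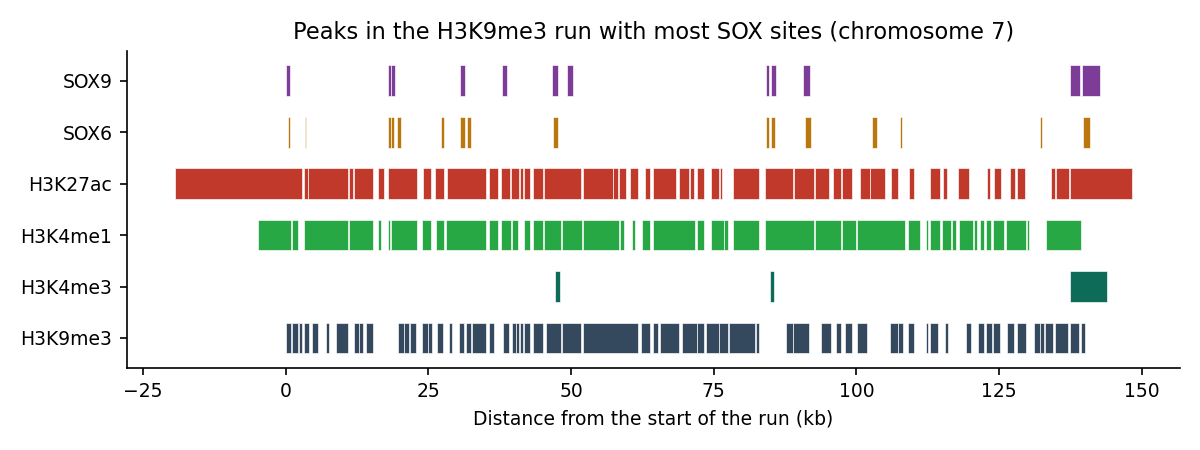
Peaks of the 6 lists along the chromosome 7 run with most SOX sites in H3K9me3, as distance from the start of the run in kb. Each block is 1 deposited interval, and intervals that reach past the run are drawn whole. H3K27ac covers 74.1% and H3K9me3 64.8% of the 140 kb run, while H3K4me3 covers 2.92%.

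Most sites did not share a run. The 865 sites lay in 742 runs, 79 of which held more than 1 site, and 202 sites shared a run with another. In 68 of these 79 runs the sites were alike in acetylation, and in 11 they were mixed. A small run on chromosome 2 from 182721114 to 182727679 held 4 of the 865 sites on 3 H3K9me3 intervals, all of SOX6 alone. It had 5 SOX6 intervals in all and no active mark.

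Among the highest-scoring acetylated sites, each of the first 5 had both factors and H3K4me1, and 1 had H3K4me3. Sites were ranked by the higher of their SOX9 and SOX6 percentiles, so a site with both factors is favoured by the rule. The first lay on chromosome 9 from 17756196 to 17758426, with a score of 3100 in both SOX lists, on an H3K9me3 interval of 6246 bp and an H3K27ac interval of 8420 bp. The next, on chromosome 18 from 80262916 to 80263937, had scores of 2857 for SOX9 and 104 for SOX6. A site on chromosome 9 from 19445606 to 19446461 had scores of 2402 and 1521 on an H3K9me3 interval of low score, 54.7. The others lay on chromosome 7, from 91193781 to 91196353, which had H3K4me3, and from 73578202 to 73579689, with SOX6 scores of 2686 and 2488. For these 5, H3K9me3 covered 24.3% to 77.3% of the site.

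The 5 highest-scoring sites without H3K27ac all had SOX6. The first lay on chromosome 2 from 182725147 to 182725927, in the small run above, with a SOX6 score of 1248 on an H3K9me3 interval with a score of 53.05. That on chromosome 4 from 4121011 to 4122339 had a SOX6 score of 1236 on a lone H3K9me3 interval, and that on chromosome 14 from 46744031 to 46744621 had 662.5. None of these 3 had a SOX9 interval or an active mark. A site on chromosome 8 from 129322732 to 129323388 had SOX9 at 734 and SOX6 at 194 with H3K4me1, and 13.5% of it lay under H3K9me3. The fifth, on chromosome 3 from 2066795 to 2067258, also had both factors and H3K4me1, with SOX6 at 654 and SOX9 at 124.

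The widest H3K9me3 intervals at acetylated sites exceeded those at other sites, in groups of unequal size. The first 5 of the 532 acetylated sites lay on intervals of 6666 to 7551 bp, and the first 5 of the 333 others on 3596 to 3950 bp. A pair of acetylated sites shared the widest, on chromosome 16, from 84644523 to 84644819 and from 84644917 to 84647518. Another on chromosome 16, from 50215781 to 50221482, was the widest SOX site of all 865, at 5702 bp, and carried all 4 marks and both factors on an H3K9me3 interval of 7472 bp. Those from 91612071 to 91613258 on chromosome 9 and from 29954893 to 29956800 on chromosome 4 completed the 5. Among sites without H3K27ac, the widest interval, 3950 bp with a score of 3100, met a SOX6 interval with a score of 59.6 on chromosome 9 from 29776401 to 29776784. H3K9me3 intervals without SOX were wider still at their widest, at 15000 bp with H3K27ac and 10650 bp without. All 6 lists met at 68 sites, or 7.86% (6.25% to 9.85%).

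The sites were unevenly spread over chromosomes, which differed both in input and in the length covered by H3K9me3. On chromosomes 7, 9, 11 and 16, where input reads per Mb were 1.63 to 2.05 times the median chromosome, lay 345 of the 865 sites, or 39.9% (36.7% to 43.2%). The chromosome 7 run and most of the acetylated sites named above also lay there. These chromosomes held 22.1% of all SOX sites and 26.2% of all H3K9me3 intervals. Of the SOX sites there 6.11% (5.51% to 6.76%) overlapped H3K9me3, against 2.62% (2.40% to 2.85%) on the other chromosomes. Chromosome 16 had the highest share, 8.33%, chromosomes 7 and 9 had 6.91% and 5.71%, and chromosome 11 had 2.62%. H3K9me3 covered 3.18% of chromosome 16, 2.92% of 7 and 3.43% of 9, but 1.21% of 11. Outside these 4, chromosome 12 had 4.92% with an input of 0.994, and H3K9me3 covered 6.59% of it. Neither the H3K9me3 coverage nor the input level, which follows the number of chromosome copies and the ease of mapping, was tested as a source of these overlaps.

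**Figure D5:**
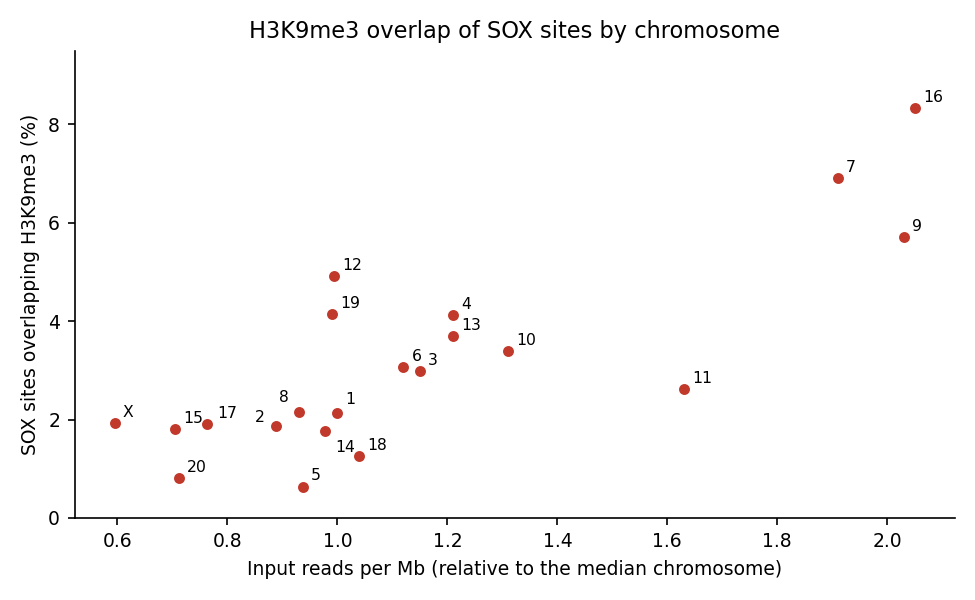
Share of SOX sites that overlap H3K9me3, in percent, against input reads without a mismatch per Mb relative to the median chromosome, averaged over the 4 inputs. Each point is 1 chromosome, labelled by its name. Chromosomes 16, 7 and 9 stand at the upper right with 5.71% to 8.33%, while chromosome 11 has 2.62% at an input of 1.63.

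Acetylation of the sites differed between these chromosomes too. H3K27ac was at 70.7% (65.7% to 75.3%) of the 345 sites on the 4 chromosomes and 55.4% (51.1% to 59.6%) of the 520 elsewhere, whereas SOX sites without H3K9me3 had 70.0% and 73.4%. The lower acetylation of SOX sites in H3K9me3 was thus seen outside the 4 chromosomes, and on them the difference was 0.753 points (-4.40 to 5.47), an interval that includes 0. The difference between the groups of chromosomes was not tested. All H3K9me3 intervals also overlapped H3K27ac more often on the 4 chromosomes, at 13.3% (12.7% to 13.9%) against 7.49% (7.23% to 7.76%) elsewhere. The differences in H3K4me3, H3K4me1 and H3K9me3 width had the same order in both groups of chromosomes. At acetylated sites in H3K9me3, H3K4me3 was at 27.9% on the 4 chromosomes and 29.2% elsewhere, against 54.8% and 50% of acetylated sites without H3K9me3. H3K4me1 was at 94.7% and 88.2%, against 89.1% and 79.7%. The median H3K9me3 width at acetylated sites was 1002.5 bp on the 4 chromosomes and 898 bp elsewhere, with 812 and 805 bp at the other sites.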

How the data were processed

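Each immunoprecipitation was deposited as 1 peak list with a peak score made by the authors, with peaks named after MACS per the files. Per the submitters' processing notes, CASAVA 1.8 and the build rn5 were used. The sources used here give no caller settings, control or filters. The inputs were deposited as raw read counts per chromosome, per the file headers.

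Overlap meant at least 1 bp. Score percentiles and quintiles were formed within a list. Where a site met several intervals, the highest score and the greatest width were taken. Chromosome length was taken as the last peak end over the 6 lists. Shares carry Wilson intervals, differences of shares Newcombe intervals, and medians intervals from binomial order statistics, all at 95%. Python 3.11.15, pandas 2.3.3 and SciPy 1.17.1 were used, and the interval functions were checked against bedtools on simulated lists. No gene was assigned and no sequence printed, as a genome or annotation of rn5 was not used here.

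Sites were named by rule: in each acetylation class the first 5 by SOX score percentile, by H3K9me3 width and by number of intervals in the run, and the 5 runs with most sites. Of the third set, some are given by their run. The members, lists and alternatives were chosen with earlier results of these data known, and 4 alternatives, as well as all those of the difference in H3K27ac from SOX sites without H3K9me3, were added after the present values were seen. The division by H3K4me3, by site width and by no active mark was also chosen then.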

Additional observations from a re-analysis of the deposited data

How the results depend on the processing

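Of 113 recomputed values under 15 alternatives, 83 stayed within the reported interval, or for the count within 1.5 times. Taking whole SOX sites, with their parts outside H3K9me3, returned every value unchanged. Leaving out the chromosome 7 run kept 851 sites, and taking sites of 1 H3K9me3 interval only kept 843. These alternatives could move the values little, and they are counted among the 113. The difference in H3K27ac from SOX sites without H3K9me3, -11.1 points, took the opposite sign above the median score of each list (0.916) and on the 4 high-input chromosomes alone (0.753). It was -18.0 outside them, -14.8 with 50% of the narrower interval shared, -17.5 with the SOX centre inside and -16.2 with SOX narrowed to 400 bp. None of the 6 differences by acetylation took the opposite sign. Above the median score of each list, 248 sites remained, 78.6% with H3K27ac. Differences by acetylation were then 46.2 points for H3K4me1, 13.8 for H3K4me3, 3.86 for runs of 5 or more and 0 intervals for the median run. H3K27ac was at 57.8% with 50% of the narrower interval shared, 55.2% with the SOX centre inside, 56.9% with SOX narrowed to 400 bp, 55.4% of 520 sites outside the 4 high-input chromosomes and 71.0% of 490 sites from SOX9 alone. The median run difference, 1 interval as reported, was 2 with 50% shared, with the centre inside and with runs joined over 10 kb, and 0 over 2.5 kb. With the centre inside, the width difference was 240 bp instead of 123, that of H3K4me3 22.5 points and that of both factors 26.7. The difference in both factors was 30.1 points with 400 bp, 48.8 with SOX9 alone and 45.1 with SOX6 alone, and that of H3K4me3 was 33.6 points with SOX9 alone. Apart from the alternatives' own construction, the cause was not tested. No paired analysis was possible because each antibody has 1 library. Peak lists hold nothing below the lowest score, so a mark not called is not shown to be absent.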
